A study of Arabidopsis thaliana with 12 samples.

Results

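Transcripts of 5 nuclear genes for photosystem and antenna proteins were compared between the Arabidopsis thaliana mutant prpl11 and wild type (WT). The genes were PSAN (AT5G64040) of photosystem I, PSB27 (AT1G03600), PSBW (AT2G30570) and PSBY (AT1G67740) of photosystem II, and LHB1B2 (AT2G34420) of the light-harvesting antenna. They were chosen by name among the 692 genes that had an array probe of their own, and each was measured by 1 probe. Both genotypes were of ecotype Columbia 0, and the mutant lacks PRPL11, a protein of the plastid ribosome's large subunit. Total RNA was measured on 6 prpl11 and 6 WT arrays, numbered 1 to 6 in each genotype. The labels name no tissue, age, growth condition or mutant allele, and do not say whether arrays came from separate plants. The p-values therefore rest on array-to-array spread, which may be technical.

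Photosystem I and photosystem II are pigment-protein complexes of the thylakoid membrane that drive light-dependent electron transport. Their reaction-centre proteins are encoded in the plastid genome and made on plastid ribosomes, whereas many small subunits and all chlorophyll a/b-binding antenna proteins are encoded in the nucleus, made in the cytosol and imported. A working photosystem combines subunits from both sources, and the 5 genes belong to the nuclear side.

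The deposited table gave 1 intensity per probe and array on a linear scale in arbitrary units, with array sums between 3597 and 3678. Intensities are quoted as deposited. Log2 changes are prpl11 minus WT after quantile normalization, which gives every array the same distribution of values, unless they are said to be as deposited. A gene was called when its adjusted p in limma, over all 3331 probes tested, was below 0.05. PRPL11 itself had no probe of its own, so it gave no check of the genotype labels, and none of 9 markers of senescent, root or seed tissue had one either. In RNA from whole samples, a change in the share of green cells and a change of transcript per cell cannot be told apart.

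Of the 5 genes, only PSAN was called: its transcript rose about 1.5-fold in prpl11. PSB27, PSBW, PSBY and LHB1B2 did not pass in the fit without a block, with log2 changes between -0.19 and 0.19, and 3 of them passed when arrays were paired by number, as given further on. Among all probes, 184 of 3331 (5.52%) were called in the same fit, 2.46% higher and 3.06% lower in prpl11. The median log2 change was 0.15 over the 5 genes and 0.045 over the 4 without PSAN, against 0.011 over all probes tested. The median absolute change was 0.19 over the 5 genes and 0.17 over the 4 without PSAN, against 0.0818 over all probes. The SE of these 4 changes was 0.086 to 0.12, and the difference between the medians was not tested.

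**Figure D1:**
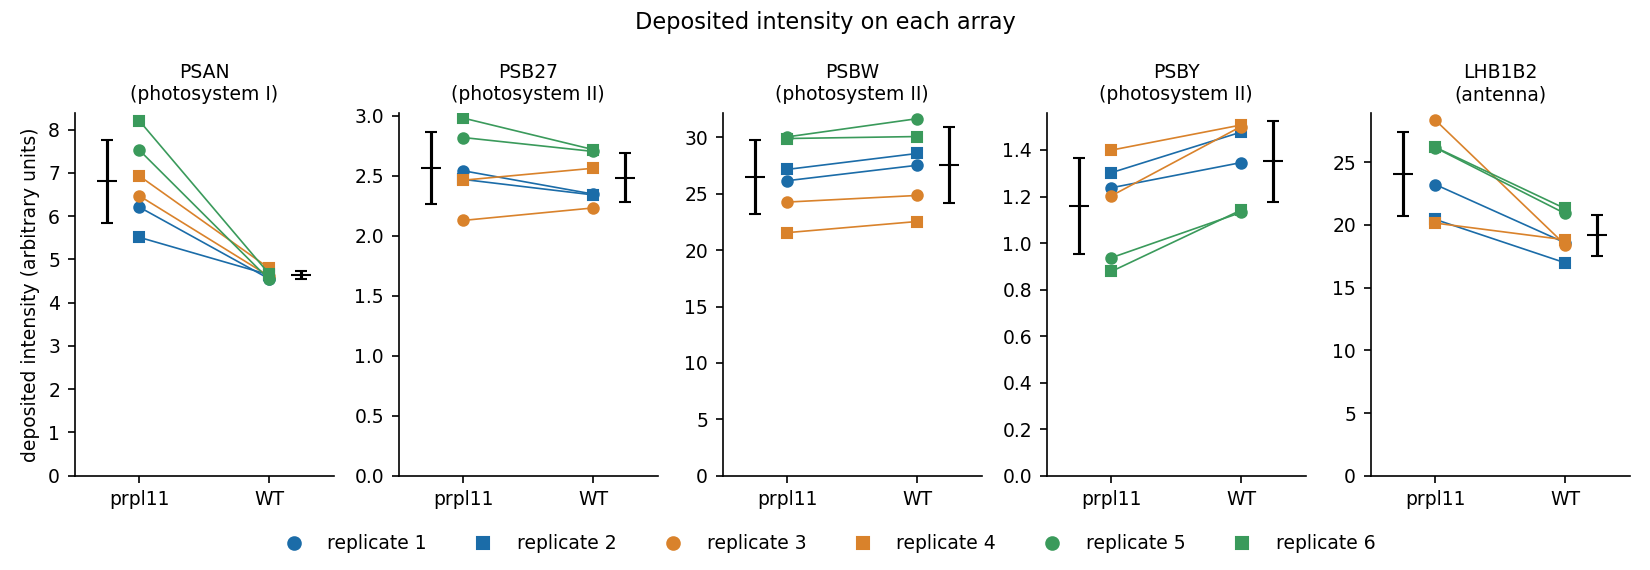
Deposited intensity (arbitrary units, each panel with its own axis from 0) of the 5 genes on the prpl11 arrays (left in each panel) and the WT arrays (right), with lines joining arrays of the same replicate number and black bars giving mean and SD over 6 arrays. All 6 PSAN values of prpl11 lie above those of WT, while the genotypes overlap for PSB27, PSBW, PSBY and LHB1B2.

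PSAN encodes a small extrinsic subunit on the lumenal side of photosystem I, where plastocyanin delivers electrons. On the prpl11 arrays 1 to 6 the PSAN intensity was 6.21, 5.51, 6.47, 6.93, 7.52 and 8.20. On the WT arrays it was 4.55, 4.64, 4.61, 4.80, 4.54 and 4.67. The lowest prpl11 value lay above the highest WT value, a separation seen upward for 1.62% of all probes. The mean was 6.80 ± 0.96 in prpl11 and 4.64 ± 0.094 in WT (SD, n = 6 each). The log2 change was 0.62 ± 0.06 (SE), with a 95% interval of 0.49 to 0.75 and an adjusted p of 3.84e-05 in limma, and PSAN was higher in prpl11 in 6 of 6 same-numbered pairs. An exact two-sided permutation test over the 12 arrays gave p = 0.00216, the smallest that 924 regroupings allow. The test treats all 12 arrays as separate, although arrays with neighbouring numbers resembled each other, as given further on. A larger upward change was measured for 20 probes, 5 of which carried a single gene. The 58 probes whose mean intensity lay within 1.5-fold of that of PSAN had a median log2 change of 0.011.

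The spread of PSAN within a genotype depended on the scale. As deposited, the coefficient of variation over 6 arrays was 14.1% in prpl11, where the median over all probes was 10.1%, and 2.03% in WT, where 0.240% of the probes tested varied less. On the normalized log2 scale the SD was 0.11 in prpl11 and 0.078 in WT. The difference in spread was not tested. The size of the PSAN change differed between pairs. Within same-numbered pairs the deposited ratio of prpl11 to WT ran from 1.19-fold in pair 2 to 1.76-fold in pair 6.

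Arrays with neighbouring numbers (1 and 2, 3 and 4, 5 and 6) resembled each other over all probes. The median difference between them was 0.084 on the normalized log2 scale, against 0.16 between other arrays of a genotype. In these 3 sets of arrays PSAN averaged 5.86, 6.70 and 7.86 in prpl11, against 4.60, 4.71 and 4.60 in WT. As deposited, the prpl11 level was highest in arrays 5 and 6, while the WT level was nearly flat. On the normalized log2 scale both genotypes varied, with set means of 2.69, 2.75 and 2.86 in prpl11, against 2.13, 2.24 and 2.09 in WT. The normalized log2 change was 0.56, 0.52 and 0.78 in the 3 sets. Without arrays 5 and 6 of both genotypes it was 0.54 ± 0.06 (SE, limma adjusted p = 0.00184), in a fit that called 5.76% of all probes. With the sets averaged to 3 values per genotype the limma adjusted p was 0.0448, the highest of the 27 alternative limma fits of PSAN, in a fit that called 0.690% of all probes.

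Photosystem II was represented by 3 nuclear-encoded proteins. PSB27 is a lumenal protein that binds photosystem II during assembly and repair. Its intensity on prpl11 arrays had a lowest, median and highest value of 2.13, 2.51 and 2.98, against 2.23, 2.45 and 2.72 on WT arrays. The genotypes overlapped, with 2 prpl11 arrays above all WT arrays and 1 below them. The log2 change was 0.15 ± 0.09 (SE), with a 95% interval of -0.034 to 0.34 (limma adjusted p = 0.443). As deposited, PSB27 was higher in prpl11 in pairs 1, 2, 5 and 6 and lower in pairs 3 and 4, within a range of -0.069 to 0.13 on the log2 scale.

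PSBW encodes a small membrane protein of photosystem II. Its probe was among the brightest, between the 12th and the 18th place on every array. The intensity had a lowest, median and highest value of 21.6, 26.7 and 30.0 in prpl11, against 22.5, 28.0 and 31.6 in WT. The ranges almost coincided. The log2 change was -0.064 ± 0.093 (SE), with a 95% interval of -0.26 to 0.14 (limma adjusted p = 0.811). Within pairs the deposited values differed little but always in the same sense, with log2 differences of -0.075 to -0.0084 and prpl11 lower in 6 of 6 pairs. The same downward sign in every pair was found for 14.1% of all probes. After quantile normalization pair 6 had the opposite sign. Normalized values depend only on the place within an array, and for such bright probes they move in coarse steps. In pair 6 PSBW stood in place 12 in prpl11 and 13 in WT. The 15 probes whose mean intensity lay within 1.5-fold of that of PSBW had a median log2 change of 0.27 as deposited and 0.12 after normalization.

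PSBY encodes a precursor that is cut into small membrane proteins of photosystem II. It was the dimmest of the 5 probes, with a lowest, median and highest intensity of 0.878, 1.22 and 1.40 in prpl11, against 1.13, 1.41 and 1.51 in WT. Arrays 5 and 6 were the lowest of both genotypes, and those of prpl11 lay below all WT arrays. The mean was 1.16 ± 0.21 in prpl11 and 1.35 ± 0.18 in WT (SD, n = 6 each). The log2 change was -0.19 ± 0.12 (SE), with a 95% interval of -0.46 to 0.072 (limma adjusted p = 0.518). PSBY was lower in prpl11 in 6 of 6 pairs, as deposited and after normalization.

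LHB1B2 is one of the genes for LHCB1, the main component of the trimeric antenna of photosystem II. Copies of this gene family may share its probe. The intensity had a lowest, median and highest value of 20.1, 24.7 and 28.4 in prpl11, against 17.0, 18.7 and 21.3 in WT. In prpl11, 4 of 6 arrays lay above all WT arrays. The mean was 24.1 ± 3.4 in prpl11 and 19.2 ± 1.6 in WT (SD, n = 6 each), a ratio of 1.26.

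The change of LHB1B2 depended on the scaling. It was 0.19 ± 0.09 after quantile normalization (SE, limma adjusted p = 0.332) and 0.32 ± 0.09 as deposited (SE, limma adjusted p = 0.0714), where 5.43% of all probes were called. As deposited it was higher in prpl11 in 6 of 6 pairs, by 0.099 in pair 4 to 0.62 in pair 3 on the log2 scale. The same upward sign in every pair was found for 10.1% of all probes. The 13 probes whose mean intensity lay within 1.5-fold of that of LHB1B2 had a median log2 change of 0.079 as deposited and 0.070 after normalization. For the 15 probes within 1.5-fold of PSBW, LHB1B2 among them, these medians were 0.27 and 0.12. The comparison with equally bright probes thus depends on which few probes are taken. After quantile normalization pair 4 had no difference and the other 5 pairs were higher in prpl11. The tie in pair 4 reflects the same place, the 20th, on both arrays, where the deposited values were 20.1 in prpl11 and 18.8 in WT. An exact two-sided permutation test over the 12 arrays, added after the data were seen, gave p = 0.0130 on deposited values, while after normalization it gave p = 0.0866.

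**Figure D2:**
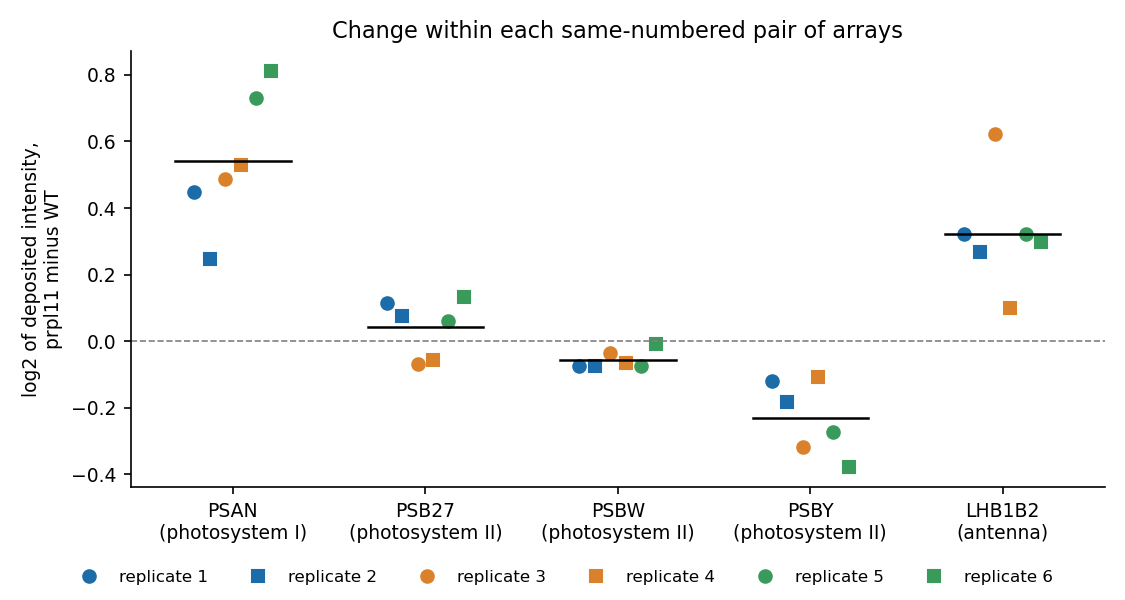
Log2 difference of deposited intensity, prpl11 minus WT, within each pair of arrays with the same replicate number (points) and the mean over the 6 pairs (black line), for the 5 genes. PSAN and LHB1B2 lie above 0 and PSBW and PSBY below 0 in all 6 pairs, and PSB27 lies on both sides of 0.

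Same-numbered arrays of the genotypes deviated together over all probes, so a second fit took the replicate number as a block and thereby removed what a pair shares. That fit called 649 of 3331 probes (19.5%), 10.3% higher and 9.19% lower in prpl11. It called 4 of the 5 genes. PSAN (limma adjusted p = 0.000404), PSB27 (0.0470) and LHB1B2 (0.0473) were higher in prpl11. PSBY was lower, with a 95% interval of -0.29 to -0.09 (limma adjusted p = 0.0198). PSBW did not pass (limma adjusted p = 0.271), and its 95% interval of -0.15 to 0.024 leaves room for a decrease to 0.900-fold. The wider interval of the fit without a block reached down to 0.833-fold.

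These blocked calls were not equally firm. With the block on values as deposited, LHB1B2 (limma adjusted p = 0.0106) and PSBY (0.0120) passed, while PSB27, at 0.043 on the log2 scale, did not (0.495). That fit called 18.0% of all probes, 7.05% higher and 10.9% lower in prpl11. With neighbouring numbers averaged and the 3 sets as a block, PSAN passed (limma adjusted p = 0.0134) and PSB27 (0.241), PSBY (0.141) and LHB1B2 (0.103) did not, in a fit that called 4.14% of all probes.

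**Figure D3:**
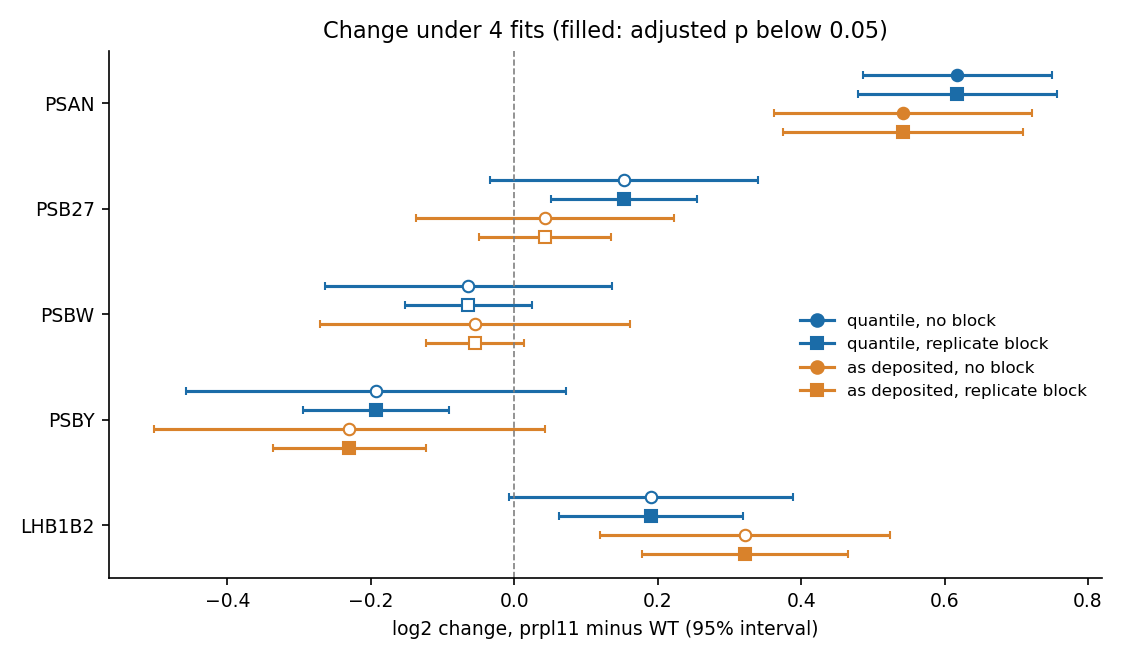
Log2 change, prpl11 minus WT, of the 5 genes with 95% intervals in limma without and with the replicate number as a block, after quantile normalization (blue) and as deposited (orange), with filled symbols for an adjusted p below 0.05. PSAN is filled in all 4 fits, PSBY and LHB1B2 in the 2 blocked fits, PSB27 in 1 blocked fit and PSBW in none.

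Whether PSAN changed more than the photosystem II and antenna genes was tested on the log2 ratio of PSAN to each of them within an array. This asks about changes and needs no comparison of brightness between probes. After quantile normalization the PSAN change exceeded that of PSBY by 0.81 ± 0.14 (SE, limma adjusted p = 7.57e-05) and that of PSBW by 0.68 ± 0.11 (adjusted p = 5.05e-05). It exceeded that of PSB27 by 0.46 ± 0.09 (SE, limma adjusted p = 0.000213) and that of LHB1B2 by 0.43 ± 0.09 (adjusted p = 0.000569). All 4 differences were positive in 6 of 6 pairs. The p-values were adjusted over the same ratio for all 3330 other probes, of which 3219 (96.7%) passed. A difference from PSAN was thus found for nearly all probes, and nothing particular to the photosystem II and antenna genes is read from it.

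The contrast with LHB1B2 was the one that scaling changed. As deposited, the PSAN change exceeded that of LHB1B2 by 0.22 ± 0.11 (SE, limma adjusted p = 0.0603), while 94.4% of probes passed. It was positive in 4 of 6 pairs, at -0.021 in pair 2 and -0.13 in pair 3. The differences from PSB27, PSBW and PSBY as deposited were 0.50, 0.60 and 0.77, each positive in 6 of 6 pairs.

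**Figure D4:**
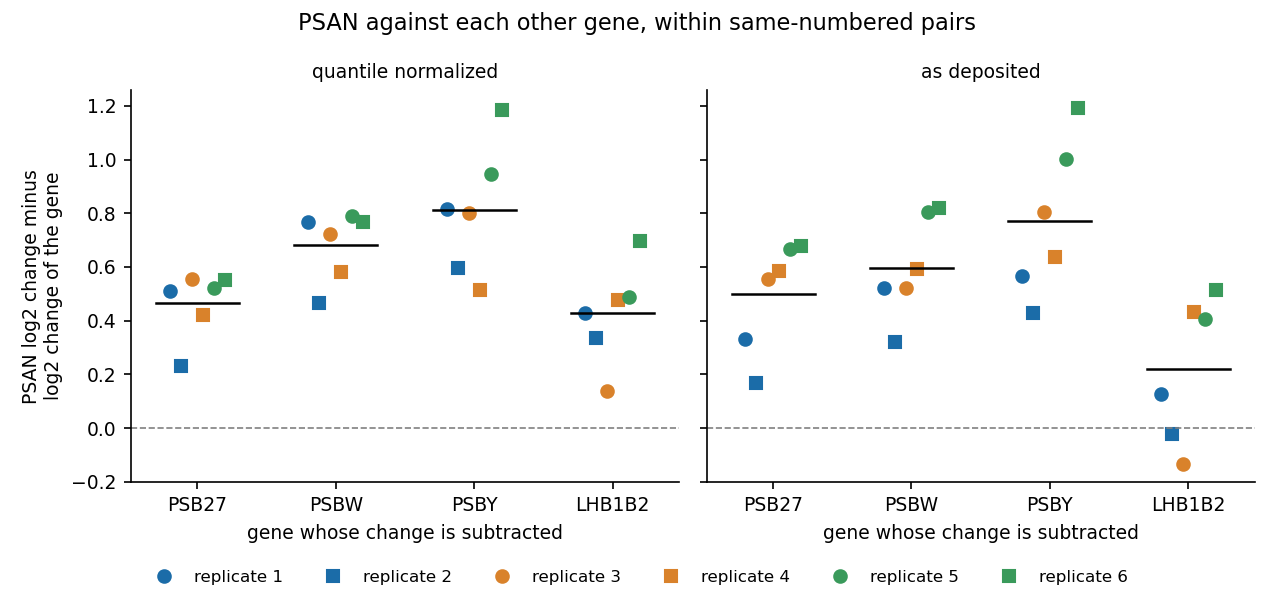
Log2 change of PSAN minus that of PSB27, PSBW, PSBY or LHB1B2 within each same-numbered pair of arrays (points) and the mean over 6 pairs (black line), after quantile normalization (left) and as deposited (right). All points are above 0 except those of LHB1B2 in pairs 2 and 3 as deposited.

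Relative brightness can be given only as a place within an array, since probes can differ in length and labelling and brightness is no measure of transcript number between genes. PSAN stood between the 43rd and the 57th place in prpl11, against the 74th to the 86th place in WT, so its ranges of places did not overlap. LHB1B2 stood between places 15 and 21 in prpl11, against 19 and 22 in WT. PSBW held places 12 to 18 in prpl11, against 12 to 17 in WT. PSB27 lay between 115 and 181 in prpl11, against 145 and 181 in WT. PSBY lay between 347 and 855 in prpl11, against 332 and 547 in WT.

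The 3 photosystem II genes were also compared in how they varied across arrays apart from genotype. Normalized log2 values over 12 arrays were used, after subtraction of genotype means. PSBY ran opposite to PSBW (Pearson r = -0.81) and to PSB27 (r = -0.80), and PSB27 ran with PSBW (r = 0.69). The arrays of a set share much of this variation, so these values are descriptive. High positive values were common. Of 648 other genes, 5% reached an r of at least 0.78 with PSB27, 0.85 with PSBW and 0.88 with PSBY. The r of 0.69 lay below the values for PSB27 and PSBW. No such share was computed for negative values, so none stands beside the r of -0.81 and -0.80. PSBW averaged 30.0 in prpl11 and 30.9 in WT on arrays 5 and 6, its highest set. On the same arrays PSBY averaged 0.908 in prpl11 and 1.14 in WT, its lowest set. PSAN had an r between -0.15 and 0.35 with the other 4 genes over 12 arrays, but the sign differed between the genotypes for each of them. Over 6 arrays each, PSAN and PSBY had r = -0.65 in prpl11 and 0.85 in WT, and PSAN and PSBW had r = 0.31 in prpl11 and -0.84 in WT. The WT values rest on little variation of PSAN, whose deposited coefficient of variation there was 2.03%. After normalization WT arrays 1, 5 and 6 shared the same PSAN value (2.09), since PSAN stood in the 86th place on each. These differences were not tested.

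The genes closest to each of the 5 in this variation were sought among 648 genes with a probe of their own. The closest to PSAN was AT5G48830 (r = 0.79), with a log2 change of 0.037. PSB27 was closest to AT4G12270 (r = 0.92), PSBW to AT4G14050 (r = 0.97) and PSBY to OTP70 (r = 0.97). The median r over the 648 genes lay between -0.20 and 0.18 for the 5 genes. LHB1B2 ran closely with AT5G55220 (r = 0.88) and with PRK (r = 0.87), the phosphoribulokinase of the Calvin cycle. PRK had a log2 change of -0.51 between the genotypes, against 0.19 for LHB1B2. The 95th percentile of r over the 648 genes was 0.51 for PSAN and 0.73 for LHB1B2. All named genes were picked as the highest of 648 values, so a high r follows from the choice and no functional link is read from it.

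Little of the wider pathway could be read. Of 86 listed nuclear genes for photosystem subunits, antennae, electron carriers, plastid ATP synthase and photosystem assembly, 8 had a probe of their own, and another 9 were found only on probes shared with other genes. Besides the 5 genes described, these 8 were LPA19, AT1G22700 and AT1G54500 from the assembly list. In the fit without a block PSAN was the only one of the 8 called, where 5.52% of all probes were. With the replicate number as a block PSB27, PSBY and LHB1B2 were called as well, where 19.5% of all probes were, and the 3 assembly genes and PSBW did not pass. LPA19, a relative of PSB27 that acts in the maturation of photosystem II, had 0.955 ± 0.13 in prpl11 and 0.979 ± 0.076 in WT (SD, n = 6 each), a log2 change of -0.034. The log2 change was -0.12 ± 0.06 for AT1G22700 (SE, limma adjusted p = 0.333). It was -0.057 ± 0.098 for AT1G54500 (SE, adjusted p = 0.846). Among 12 listed photosystem I subunits PSAN was the only one with a probe of its own, so the other nuclear genes of photosystem I were not analysed here.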

How the data were processed

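Intensities of 3439 probes on 12 arrays were used as deposited by the authors. They are linear with none below 0, and nearly equal array sums show a scaling between arrays. Its reference, the background correction and the scanner are not given in these sources. Values of 0 took the 1st percentile of all positive values (0.0583), log2 was taken and arrays were quantile normalized. Tests left out 108 probes that were at 0 on every array. Testing used limma 3.58.1 in R 4.3.3 (lmFit, eBayes, Benjamini-Hochberg over 3331 probes, no block). The PSAN ratio was fitted likewise for 3330 probes. Exact permutation tests were two-sided and treated all arrays as separate, which does not allow for the likeness of neighbouring numbers. Alternatives changed the normalization, the treatment of 0, the filter on dim probes, the variance model, the block and the arrays included.

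Named were the 5 genes, all genes of fixed pathway lists with a probe of their own, and for each of the 5 the genes most correlated with it, up to 3. Genes come from probes with 1 listed gene (692 of 3439; 870 had several and 1877 none), with symbols from the TAIR10.1 gene table. The genes and lists were chosen with earlier results of these data known. Deviations of same-numbered arrays correlated between genotypes at 0.288 to 0.514 in the 6 pairs, above 0.1 in every pair. A pairing by number was thus read from the data and not from the labels. It was used for the within-pair values, the sign flips and the alternative fits with the replicate number as a block. The main fit did not use it. The highest correlation with another number was close behind in pair 1 (0.238 against 0.288) and pair 4 (0.359 against 0.363), so much of what is shared lies between neighbouring numbers. On simulated data with 200 of 3331 probes changed, the fit recovered 52.8% of log2 changes of 0.3 and 87.4% of 0.6. Of its calls on these data, 4.73% were false. The simulated arrays varied independently, unlike the measured arrays with the same or neighbouring numbers. These rates therefore need not hold for the measured data. Figures were drawn with matplotlib 3.10.9. The number of arrays limits the precision, and no measure of background was used.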

Additional observations from a re-analysis of the deposited data

How the results depend on the processing

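PSAN kept its direction and call in all 27 alternative limma fits and 4 exact tests, with log2 changes of 0.54 to 0.67. Its difference from PSB27, PSBW and PSBY also kept its call in all of them. Against LHB1B2 that difference lost its call with median centring or no normalization, which give the same ratio of 0.22 (limma adjusted p = 0.0603), and so it did with the replicate block added (0.0653). On deposited values it also missed in exact tests over 12 arrays (p = 0.0519) and over 6 pairs (p = 0.188). Combinations of 2 choices and exact tests on deposited values were added after the data were seen.

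The replicate block brought PSB27 (log2 change 0.15), PSBY (-0.19) and LHB1B2 (0.19) past the threshold. Combined with no normalization it called PSBY (-0.23) and LHB1B2 (0.32), and combined with median centring it called PSBY (-0.22) and LHB1B2 (0.33, limma adjusted p = 0.0127). Exact sign flips over 6 pairs, which cannot go below p = 0.0312, reached that value for PSBY before and after normalization. On deposited values they reached it for LHB1B2 and for PSBW (-0.055). Any probe with the same sign in all 6 pairs reaches it. On deposited values that held upward for 10.1% and downward for 14.1% of all probes. For LHB1B2 the exact test over 12 arrays on deposited values (0.32, p = 0.0130) also passed. These exact p-values are not adjusted, and they treat arrays or pairs as separate although neighbouring numbers resembled each other. The other alternatives left the calls of these 4 genes as they were. Single arrays moved their sizes. PSBW ranged from -0.11 to -0.017 (extremes without prpl11 replicate 6 and without prpl11 replicate 3 or 4), and WT replicates 4 and 5 also moved it by over 1.5 times. PSBY was -0.12 without prpl11 replicate 6, which also left PSB27 at 0.098.

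The count of called probes was 649 with the replicate block, 598 and 647 with the block and no normalization or median centring, 23 with sets averaged, 72 with each genotype's sets as a random block, and 114 and 96 without the set of arrays 1 and 2 or 3 and 4. Leaving out single arrays gave 142 to 180. The cause of these shifts was not tested.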

Other observations

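Among the genes closest to the 5 in their variation across arrays was AT3G09080, which ran with PSB27 (r = 0.90 over 12 arrays) and fell by 0.76 on the log2 scale in prpl11 (limma adjusted p = 0.000961). AT5G42070 ran with PSAN (r = 0.79, Spearman 0.38), GH9B16 with PSBW (r = 0.95) and AT3G24190 with PSBY (r = 0.96), and none of these 3 was called.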
